A study of Mus musculus with 6 samples.

Results

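The 20 Mb of mouse chromosome 1 between 150 and 170 Mb (mm10) held 1204, 1026 and 1255 of the 49597, 46646 and 48397 regions called in GATA4 replicates 1, 2 and 3. The same stretch held 1225, 1074 and 1069 of the 46484, 42446 and 44539 regions called in GATA6 replicates 1, 2 and 3. Of the combined lists, which keep only regions found in all 3 libraries of a factor, it held 165 of 8282 regions for GATA4 and 125 of 5170 for GATA6. A region was a member if its midpoint lay in the stretch, which was selected on the number of regions per Mb in these same lists. Its density against the rest is therefore described and not tested.

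The regions came from CUT&RUN, which uses an antibody to tether a nuclease to a factor on chromatin and sequences the DNA it frees. All 6 libraries, 3 with an antibody to GATA4 and 3 with an antibody to GATA6, were made from mouse extra-embryonic endoderm (XEN) cells labelled with the genotype 3F2. Per the study's methods these cells carried a doxycycline-inducible reprogramming cassette at Col1a1, the M2rtTA transactivator at the Rosa26 locus and an Oct4-GFP reporter, and the libraries were of the starting cells. Both groups thus share every allele, and all libraries come from a single labelled line. The lists hold no expression values, so the cell type was not checked against marker genes.

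GATA4 and GATA6 are zinc finger transcription factors of the primitive endoderm, the lineage from which XEN cells derive, and both bind the core letters GATA. Endoderm factors of this kind act at promoters and at distal elements that may lie far from the gene they serve. Among the genes of the stretch is Lamc1, which encodes a gamma chain of laminin, the basement membrane protein that primitive endoderm and its derivatives secrete in quantity.

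The members that the results below turn on are shown by sequence. Each is the 201 bp around a region's midpoint, plus strand, GRCm38 (mm10), with capitals marking a GATA motif, taken as GATA preceded by A or T and followed by A or G, on either strand, so that it may read as TTATCT where it lies on the minus strand. Ranks here and below are among the regions of the segment only, by mean percentile of total signal within the library lists. The segment's top-ranked distal region in both combined lists lay between genes at chr1:151223459-151223659 and held 1 match.
Intergenic region: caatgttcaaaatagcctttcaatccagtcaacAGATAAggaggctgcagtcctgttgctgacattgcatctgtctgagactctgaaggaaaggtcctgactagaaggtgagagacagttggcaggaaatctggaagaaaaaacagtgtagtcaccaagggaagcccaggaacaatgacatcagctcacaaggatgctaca
The highest-ranked region upstream of Lamc1, at chr1:153376780-153376980, held 2.
Lamc1 upstream region: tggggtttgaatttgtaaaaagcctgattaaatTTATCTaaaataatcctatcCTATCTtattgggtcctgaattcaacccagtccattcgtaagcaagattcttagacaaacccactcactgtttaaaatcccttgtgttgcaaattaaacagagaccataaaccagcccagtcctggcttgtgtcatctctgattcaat
The segment's highest-ranked promoter region in the GATA6 combined list, at chr1:166002868-166003068 just upstream of Pou2f1, held none.
Pou2f1 promoter region: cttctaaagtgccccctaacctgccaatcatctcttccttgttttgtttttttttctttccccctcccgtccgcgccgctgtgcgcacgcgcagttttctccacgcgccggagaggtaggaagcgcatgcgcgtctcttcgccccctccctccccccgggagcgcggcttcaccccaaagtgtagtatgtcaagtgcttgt
The highest-ranked region called in every GATA4 library and no GATA6 library, at chr1:150442999-150443199 in an intron of Tpr, held 1.
Tpr intron region: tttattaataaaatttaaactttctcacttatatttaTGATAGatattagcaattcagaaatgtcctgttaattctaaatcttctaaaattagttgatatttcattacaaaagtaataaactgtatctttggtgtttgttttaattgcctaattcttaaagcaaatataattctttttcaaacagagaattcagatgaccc
The highest-ranked region called in every GATA6 library and no GATA4 library, at chr1:160803598-160803798 near Rabgap1l, held none.
Rabgap1l upstream region: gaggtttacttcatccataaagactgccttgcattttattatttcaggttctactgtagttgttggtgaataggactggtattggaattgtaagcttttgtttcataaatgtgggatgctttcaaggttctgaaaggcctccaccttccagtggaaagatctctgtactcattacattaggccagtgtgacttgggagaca
The Tpr intron window was the poorest in G and C of the 5, at 22.9%, and the Pou2f1 window the richest, at 58.7%.

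The segment held 60.4, 51.4 and 62.9 called regions per assembled Mb in GATA4 replicates 1, 2 and 3, and the rest of chromosome 1 held 14.2, 14.3 and 13.5. The GATA6 replicates gave 61.4, 53.8 and 53.6 per Mb in the segment and 12.5, 12.04 and 12.4 in the rest. The segment was thus denser in each of the 6 libraries. The density ratio was 4.16 ± 0.540 for GATA4 (SD, n = 3) and 4.57 ± 0.301 for GATA6 (SD, n = 3), and in the combined lists it was 3.49 and 4.34. Counting covered base pairs in place of regions gave 4.39 ± 0.628 and 4.79 ± 0.262. The GATA4 and GATA6 ratios overlapped between libraries, with a mean log2 difference, GATA4 minus GATA6, of -0.14 (two-sided exact permutation test, p = 0.4, n = 3 and 3). The smallest p possible here is 0.1, so this test could not pass 0.05.

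Chromosomes 8, 14 and 19 were also dense, at 3.00 ± 0.288 (GATA4) and 3.39 ± 0.223 (GATA6) times the density of the other autosomes (SD, n = 3). Against those other autosomes the segment stood at 3.85 ± 0.440 for GATA4 and 4.22 ± 0.289 for GATA6. Chromosomes 8, 14 and 19 were set apart as dense beforehand, and the other autosomes leave out them and chromosome 1. Their ratio is therefore described and not tested. No input library was used here and no IgG control entered the calls as the study describes them. More bound sites and more DNA template in the segment therefore cannot be told apart in these lists.

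**Figure D1:**
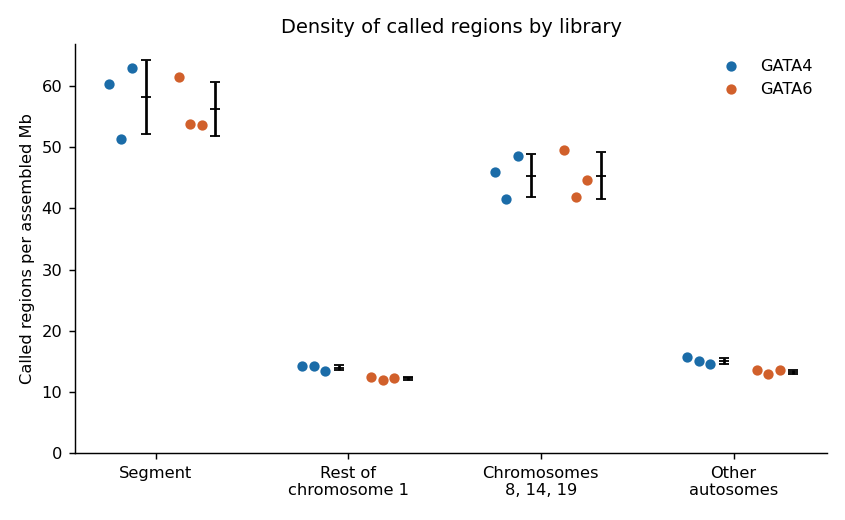
Called regions per assembled Mb (y axis) in the segment, the rest of chromosome 1, chromosomes 8, 14 and 19, and the other autosomes. Points are single libraries and black bars are the mean ± SD of 3 libraries. All 6 segment values lie between 51.4 and 62.9, and all 6 values for the rest of chromosome 1 between 12.04 and 14.3.

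To place the edges, chromosome 1 was cut into 0.5 Mb bins, and the pair of bin edges that gave the highest Poisson likelihood for a single denser interval was taken. With the 6 libraries summed, the interval ran from 149.5 to 168 Mb, with 61.0 regions per Mb and library inside it and 13.1 outside. In 0.1 Mb bins the edges were 149.8 and 168 Mb. Library by library, the lower edge lay between 147.5 and 150.5 Mb and the upper edge between 167.5 and 168.5 Mb. The upper edge thus varied less between libraries. The fall there was graded, with sums over 6 libraries of 193, 118, 79, 56 and 19 in the bins from 167 to 169.5 Mb. In the 2 Mb below 168 Mb the libraries held 68 to 118 regions each, and in the 2 Mb above it 28 to 38. The last 1.5 Mb of the chosen stretch, 168.5 to 170 Mb, averaged 12.7 regions per Mb and library, near the level of the rest of the chromosome.

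Below the lower edge lay a shoulder of intermediate density. Summed over 6 libraries, the bin from 146 to 146.5 Mb held 17 regions, and the bins from 147 to 150 Mb held 65 to 98 each. The bin from 150 to 150.5 Mb held 171. Between 147 and 149 Mb, where no protein-coding gene starts, the libraries held 45 to 65 regions each, an average of 27.0 per Mb. Between 144 and 146 Mb, where 5 protein-coding genes start, they held 13 to 16 each, an average of 7.42 per Mb. Only 4 transcription start sites (TSSs) lie in the 2 Mb from 147 to 149 Mb, so little promoter sequence lies there. From 0 to 2 regions per library in those 2 Mb lay within 1 kb of a TSS. No region of either combined list lay in them. With the lists cut to their upper ranks (21223 regions each), the interval ran from 150 to 172.5 Mb. It then took in a gene-rich stretch, 171 to 172.5 Mb, where 51 protein-coding genes start, 63 to 83 regions were called per library, and 25.4% to 34.2% of them lay at promoters.

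**Figure D2:**
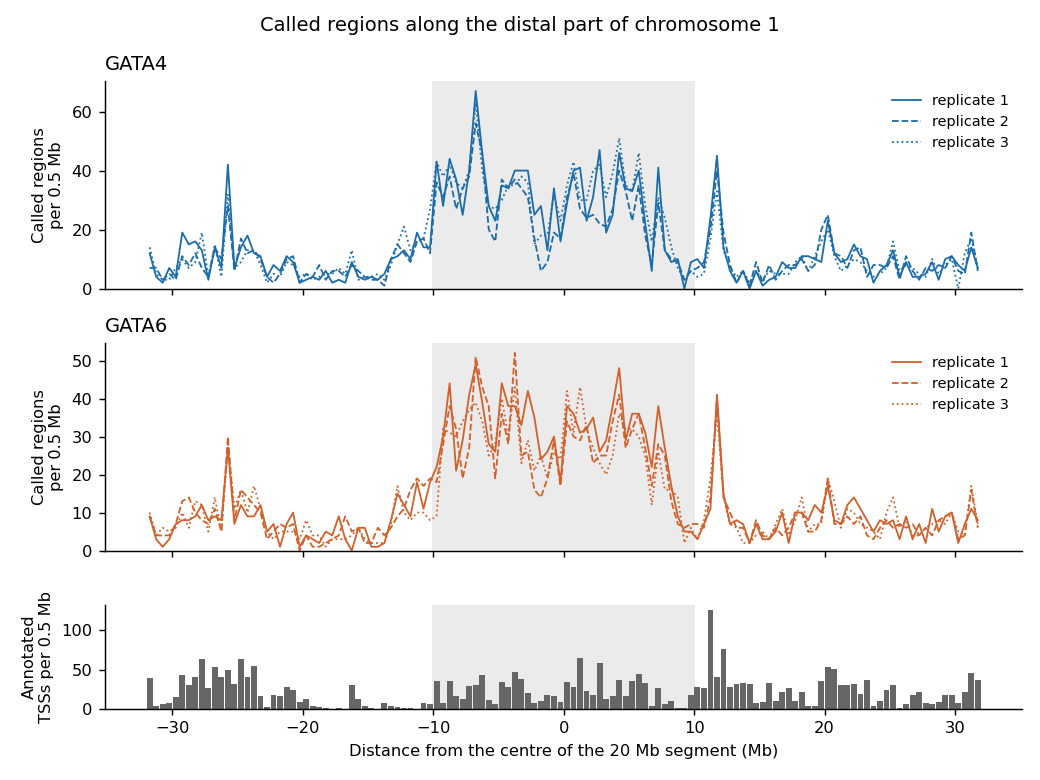
Called regions per 0.5 Mb bin for the GATA4 libraries (top), the GATA6 libraries (middle) and annotated TSSs per bin (bottom), against distance in Mb from the centre of the segment, which is shaded. The rise starts before the lower bound, and the fall lies inside the upper bound. The isolated peak above the segment is the gene-rich stretch at 171 to 172.5 Mb.

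Density within the segment was uneven. Summed over 6 libraries, its 40 bins held 19 to 325 regions with a median of 184, and 37 of them exceeded 70, the 90th percentile of the other 345 bins of the chromosome, whose median was 32. Across the segment's bins the sum and the number of TSSs had Pearson r = 0.65 and Spearman rho = 0.76 over 40 bins that share libraries and base composition. In the rest of the chromosome the values were 0.57 and 0.66 over 345 bins. Bins with fewer than 10 TSSs had a median of 116.5 in the segment (8 bins) and 23 elsewhere (167 bins). Bins with 40 or more TSSs had a median of 223 in the segment (5 bins) and 70.5 elsewhere (42 bins).

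The fullest bin, 153.0 to 153.5 Mb, contains Lamc1, Shcbp1l and Dhx9. It held 67, 56 and 63 regions in the GATA4 libraries and 49, 51 and 39 in the GATA6 libraries, and the factors did not overlap. GATA4 libraries all exceeded GATA6 libraries in 5 of 40 segment bins (12.5%), against 7.01% of all 385 bins of the chromosome. GATA6 libraries all exceeded GATA4 libraries in 2 bins (5.0%), against 2.34%. These counts were made after the bins were seen, and the GATA4 lists were longer on the whole.

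The segment was richer in genes than the rest of the chromosome, with 158 protein-coding genes (7.92 per Mb against 6.11) and 5.45% of its bases within 1 kb of a TSS against 3.98%. The share of its called regions at promoters was lower, in each library, than in the rest. Chromosomes 8, 14 and 19, which were also dense, had a mean promoter share of 12.7% over 6 libraries, beside 12.1% in the segment. The other autosomes had 22.2%, so the low share was not particular to the segment. Promoter regions made up 11.5%, 13.3% and 12.99% of segment regions in the GATA4 libraries, and 17.1%, 17.8% and 18.1% of regions in the rest of the chromosome. In the GATA6 libraries the shares were 11.02%, 10.8% and 13.003% in the segment and 15.1%, 16.4% and 17.3% in the rest. The mean difference was -4.88 ± 0.650 percentage points (SD, n = 6), lower in 6 of 6 libraries. Its exact sign-flip p was 0.03125, the smallest that 6 libraries can give, and 0.0521 after Benjamini-Hochberg adjustment over 5 measures, so it did not pass 0.05.

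Distal regions inside genes took 51.1% of the segment's regions against 39.7%, a difference of 11.4 ± 1.94 points, and distal regions between genes took 36.8% against 43.3%, a difference of -6.52 ± 2.15 points (SD, n = 6). Each held in 6 of 6 libraries, with the same exact p of 0.03125 and adjusted p of 0.0521. On chromosomes 8, 14 and 19 the shares were 46.3% inside genes and 41.0% between genes, and on the other autosomes 39.2% and 38.6%. The intergenic difference was -0.662 points with stricter lists and -1.86 against the other autosomes, and the promoter difference was -9.22 and -10.1. The bases of the segment were themselves 51.7% gene body and 42.9% intergenic, against 39.9% and 56.1% in the rest. Counted per Mb of each context, the ratio of segment to rest was 2.16 ± 0.260 (GATA4) and 2.38 ± 0.230 (GATA6) at promoters. It was 4.21 ± 0.723 and 4.48 ± 0.256 in gene bodies, and 4.56 ± 0.581 and 5.15 ± 0.403 between genes (SD, n = 3). In every library the promoter ratio, at most 2.61, was below the gene-body and intergenic ratios, at least 3.60. In the combined lists the ratios for GATA4 and GATA6 were 2.01 and 2.41 at promoters, 2.80 and 3.33 in gene bodies, and 6.11 and 8.89 between genes. The gap narrowed among the higher regions. For combined regions with a maximum of 6 or more in each of the 3 libraries, the ratio per Mb of context was 2.70 at promoters and 3.66 at distal sites for GATA4, and 3.05 and 5.40 for GATA6. For those whose lowest maximum was 4 to 5, it was 1.28 and 4.69 for GATA4, and 1.72 and 5.38 for GATA6.

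**Figure D3:**
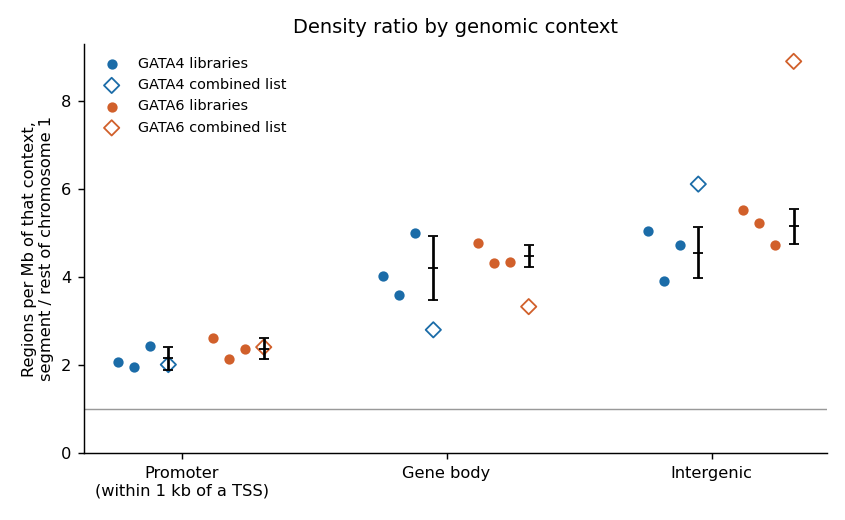
Ratio of regions per Mb of promoter, gene-body or intergenic sequence in the segment to that in the rest of chromosome 1 (y axis; the line marks 1). Filled points are libraries, black bars the mean ± SD of 3 libraries, and open diamonds the combined lists. Promoter ratios lie between 1.95 and 2.61 and all others of the libraries at 3.60 or more.

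A GATA motif within 100 bp of the midpoint was found in 42.6% of distal segment regions and 44.8% of distal regions in the rest of the chromosome, as means of 6 libraries. The difference was -2.18 ± 2.05 points (SD, n = 6), lower in 5 of 6 libraries (exact sign-flip p = 0.0625, adjusted p = 0.0781). Windows of the same length 2 kb to either side held the motif in 36.4% and 37.4%. The difference was -3.70 ± 1.64 points in the GATA4 libraries and -0.662 ± 0.952 in the GATA6 libraries (SD, n = 3). The G and C content of distal regions was 42.7% in the segment and 42.5% in the rest, a difference of 0.174 ± 0.196 points (SD, n = 6, exact sign-flip p = 0.09375, adjusted p = 0.0938). In the combined lists the motif stood in 67 of 108 distal GATA4 regions (62.0%) and 43 of 79 distal GATA6 regions (54.4%), against 59.4% and 62.5% in the rest of the chromosome. At their promoters it stood at 17.5% and 10.9%.

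The segment's regions were low in height, as elsewhere. The maximum signal is the height of a region in stacked fragments, and its median was 4 in every library both in the segment and in the rest. The ratio of density was 4.13 ± 0.303 for regions of maximum 3 or less, 4.99 ± 0.675 for 4 to 5, 3.37 ± 0.489 for 6 to 9 and 4.37 ± 0.378 for 10 or more (SD, n = 6). The excess was thus present in each class of height. Within each library's list the median percentile of total signal was 52.1 to 56.4 for segment regions and 46.2 to 48.6 for the rest.

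Most members were called once. When the 6 lists were merged, 3853 of 4863 segment regions (79.2%) came from a single library and 89 (1.83%) from all 6. In the rest of the chromosome 86.5% of 10170 came from 1 library and 1.76% from all 6. The share called in exactly 2 libraries was 13.1% in the segment and 6.40% in the rest. It was 3.48% and 2.05% for 3 libraries, 1.11% and 1.62% for 4, and 1.23% and 1.72% for 5. Denser lists overlap more often, and the segment was chosen for density, so nothing is read from these shares. At 36 promoter regions called in all 6 libraries of the segment the median maximum was 8.5 to 11 per library, and at 79 such regions elsewhere on the chromosome it was 7 to 9. Over all promoter regions the median maximum was 4 to 5 per library in the segment and 5 to 6 in the rest. Their median percentile of total signal was 71.8 to 79.1 in the segment and 68.8 to 72.6 in the rest. Of the GATA4 combined regions 88 of 165 (53.3%) overlapped a GATA6 combined region, and 89 of 125 GATA6 regions (71.2%) overlapped a GATA4 one. In the rest of chromosome 1 the shares were 43.5% and 71.0%.

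Of the 158 protein-coding genes of the segment, 55 (34.8%) had a TSS within 1 kb of a GATA4 combined region, where 19.3% of all 21938 protein-coding genes did. For GATA6 the number was 51 (32.3%), against 13.5%. Any gene in a segment chosen for its density has more regions near it, so nothing is read from these shares. The lists had a region at the promoter of 52 genes in all 6 libraries (32.9%, against 11.7% of all genes) and of 32 genes in none (20.3% against 42.5%). Both combined lists marked 42 genes (26.6% against 10.2%), the GATA4 list alone 13 (8.23% against 9.11%) and the GATA6 list alone 9 (5.70% against 3.38%). The genes below are ordered by role, in lists of 66 genes of the segment in all, of which 19 had a promoter region in all 6 libraries and 13 in none. The counts of each list stand beside the shares above for all genes of the segment, and nothing is read from them.

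Among 11 laminin and matrix genes, 2 had a combined region of either factor at the promoter, Lamc1 and Qsox1. Lamc1 (chr1:153218922-153332786, minus strand) had promoter maxima of 10, 7 and 9 in the GATA4 libraries and 6, 4 and 10 in the GATA6 libraries. It had 7 GATA4 and 7 GATA6 combined regions within 50 kb of a TSS. Qsox1, a thiol oxidase that forms disulphide bonds in secreted proteins, had 14, 11 and 10, and 12, 12 and 14. Fam20b, a kinase of proteoglycan synthesis, had 5, 6 and 6 for GATA4 and 0, meaning that no region was called, in each GATA6 library. Hmcn1, a large matrix protein, had 4, 0 and 5, and 0, 0 and 4. Prg4 and Dpt had none in any library.

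A run of distal regions lay on the upstream side of Lamc1, between its TSS and Shcbp1l. Shcbp1l had 7 GATA4 and 3 GATA6 combined regions within 50 kb of a TSS, and which gene the run serves was not tested. The region 26154 bp from the Lamc1 TSS, chr1:153358148-153359732, reached 33, 33 and 29 for GATA4 and 19, 14 and 15 for GATA6. It was higher than the Lamc1 promoter in each of the 6 libraries. The 201 bp around its midpoint held no GATA motif, while those of the overlapping GATA6 combined region, chr1:153358381-153359125, held 2. The one 23304 bp away, chr1:153355102-153357078, reached 12, 13 and 14, and 16, 6 and 7. Its window held 1 match, and that of the overlapping GATA6 combined region held 2. That at 44094 bp, chr1:153376303-153377456, whose sequence with 2 GATA motifs is printed above, reached 14, 15 and 19, and 10, 10 and 9. Another, 36487 bp away at chr1:153368837-153369709, reached 7, 11 and 6, and 7, 4 and 6, and also held 2 matches. All 4 were called in all 6 libraries.

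Among the segment's combined regions, the one that ranked first by total signal for both factors lay between genes. The intergenic region chr1:151222910-151224208, the first sequence above, reached 39, 36 and 38 in the GATA4 libraries and 18, 18 and 22 in the GATA6 libraries. The nearest TSS, 13428 bp away, was that of Gm47996, a predicted gene. Another, chr1:151143909-151145113, 38026 bp from Gm47985, reached 28, 30 and 33, and 10, 11 and 20. The region chr1:153982722-153983802, 77219 bp from Glul, which encodes glutamine synthetase, reached 21, 20 and 19, and 17, 8 and 10. Heights are not scaled for depth, so they were compared within a library and not between factors.

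Among 10 transcription factor genes, Zbtb37 and Pou2f1 had a promoter region in all 6 libraries, and 5 (Zfp648, Tbx19, Pogk, Rxrg and Lmx1a) had one in none. Pou2f1, which encodes the octamer-binding factor OCT1, had maxima of 11, 17 and 17, and 18, 9 and 13. The LIM homeodomain gene Lhx4 had 0, 0 and 0, and 0, 4 and 4. The other 8 genes of the list had no combined region of either factor at the promoter.

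Of 9 genes of chromatin and the nucleus, 8 had a GATA4 and 6 a GATA6 combined promoter region, beside 34.8% and 32.3% of all genes of the segment. The list was written with earlier results of these data known, so nothing is read from its share. A promoter region was called in all 6 libraries at 7 of them. Dhx9, an RNA helicase gene, had promoter maxima of 15, 21 and 14, and 23, 17 and 19. Tpr, which encodes a protein of the nuclear pore basket, had 14, 16 and 16, and 8, 9 and 9. Cop1, a ubiquitin ligase gene, had 10, 16 and 15, and 7, 6 and 4. Rnf2, which encodes the catalytic RING1B subunit of Polycomb complex PRC1, had 5, 7 and 9 for GATA4 and 0, 8 and 0 for GATA6.

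Of 9 genes of metabolism and transport, 5 had promoter regions in all 6 libraries, beside 32.9% of all genes of the segment. Mgst3, a microsomal glutathione transferase gene, had maxima of 18, 12 and 5, and 14, 16 and 16. Prdx6, a peroxiredoxin gene, had 16, 8 and 15, and 12, 13 and 14. Glul had 13, 7 and 5, and 9, 6 and 10. Soat1, which esterifies cholesterol, was the single gene of 3 in the prostaglandin and lipid list with a combined region, at 12, 8 and 15, and 9, 7 and 9, while Ptgs2, the inducible cyclooxygenase gene, had none in any library. In the signalling list of 10 genes, Abl2, a tyrosine kinase gene, had 8, 6 and 6, and 8, 5 and 7, and Rgl1, an exchange factor gene for Ral, had 7, 6 and 8, and 5, 4 and 7. Only these 2 genes of the list had a promoter region in all 6 libraries, and Rgs5 and Rgs4 had one in none. The list's only combined promoter regions were at Uck2 for GATA4 and at Abl2 for GATA6.

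No combined promoter region of either factor was found at the 5 selectin and coagulation genes, the 3 TNF ligand genes and the 6 flavin monooxygenase genes. Sele, the endothelial selectin gene, had 0, 0 and 4, and 0, 3 and 0. Fasl had 0 in every library. Scattered low calls were still made at these promoters, since each of the 5 selectin and coagulation genes and 5 of the 6 flavin monooxygenase genes had one in at least 1 library.

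**Figure D4:**
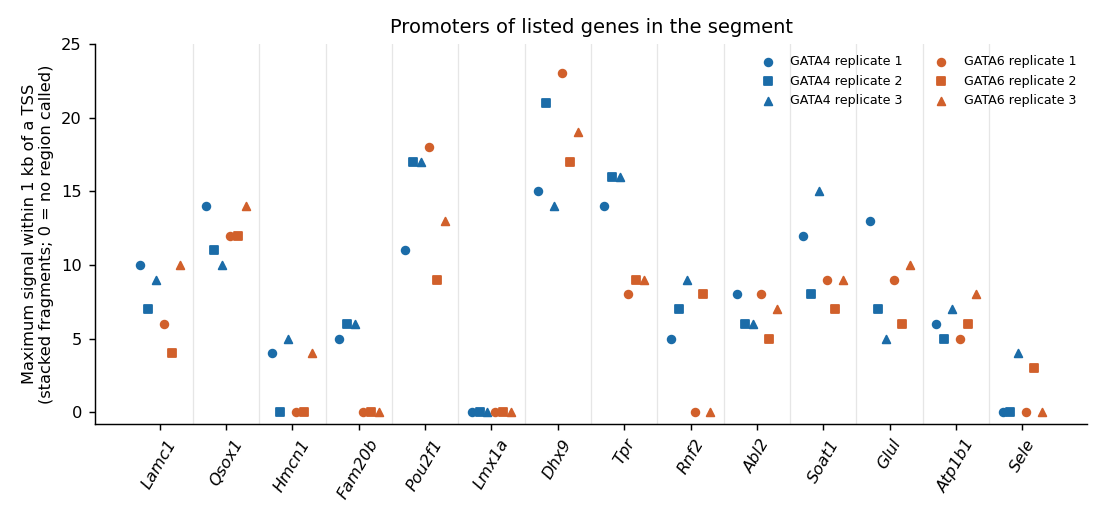
Highest maximum signal of any region within 1 kb of a TSS (y axis, stacked fragments, not scaled for depth; 0 means no region called) for 14 listed genes in each of the 6 libraries. Dhx9, Pou2f1, Qsox1 and Tpr are high in all 6, and Lmx1a is at 0 in all 6.

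Among gene bodies of the segment, the ratio of GATA4 to GATA6 regions was largest at Dhx9 and Tpr. The body of Tpr (chr1:150392838-150449935, plus strand) held 22, 25 and 27 called regions in the GATA4 libraries and 4, 4 and 1 in the GATA6 libraries. The body of Dhx9 (chr1:153455758-153487660, minus strand) held 12, 8 and 13, and 2, 1 and 1. Both sets of libraries stood clear of each other, and the summed ratios of 8.22 for Tpr and 8.25 for Dhx9 ranked 4 and 3 among 1354 protein-coding genes of the genome with at least 20 body regions. The median ratio over those genes was 1.09 and the 95th percentile 2.0. With all lists cut to equal length the ratios were 8.25 and 7.0.

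GATA4 libraries were all above GATA6 libraries in 7 of 51 such genes of the segment (13.7%), against 8.79% of the 1354. The others were Prrc2c, Rc3h1, Adcy10, Ralgps2 and 1700025G04Rik, and the last overlapped between factors with equal list lengths. Pappa2, which encodes a protease of insulin-like growth factor binding proteins, was the 1 gene with the reverse order, at 10, 5 and 10, and 15, 11 and 13, against 2.73% of the 1354 genes. The large genes Lamc1, Rgl1, Dnm3 and Rabgap1l overlapped between factors, with 13, 7 and 15 against 15, 16 and 10 for Lamc1. This comparison was made after the values were seen and was not tested.

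**Figure D5:**
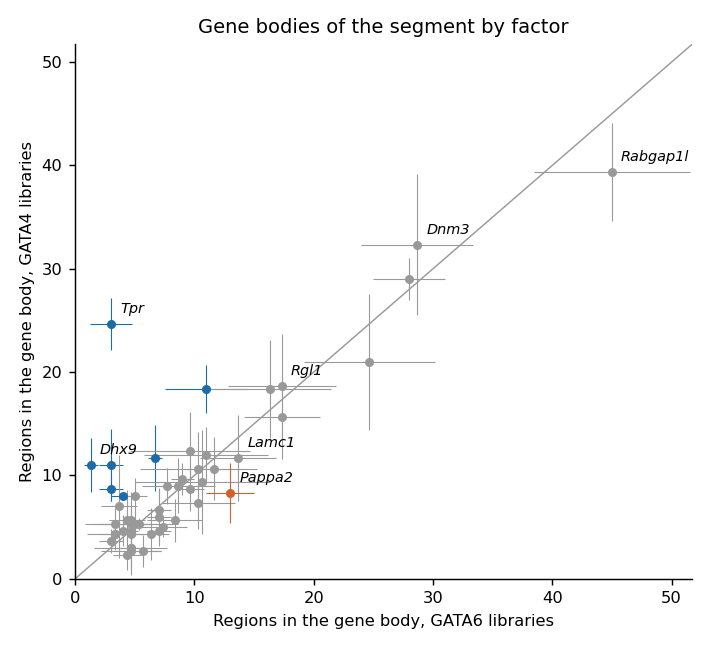
Mean number of called regions in the gene body in the GATA6 libraries (x axis) against the GATA4 libraries (y axis) for 51 genes of the segment with at least 20 over all libraries. Bars are the SD of 3 libraries, blue marks genes whose GATA4 libraries all exceed the GATA6 libraries, orange the reverse, and the line is equality. Tpr and Dhx9 lie far above the line.

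Regions found in every library of a single factor, and in no library of the other, were few, 15 for GATA4 (0.308%) and 7 for GATA6 (0.144%) of 4863, against 0.339% and 0.0798% of merged regions on all of chromosome 1. Of the 5 highest-ranked for GATA4, 4 lay in Tpr and Dhx9. The Tpr intron region chr1:150442248-150443949, shown by sequence above, reached 6, 5 and 4, and chr1:150427535-150429641 reached 4, 5 and 5. In Dhx9, chr1:153469662-153471320 reached 4, 6 and 4 and chr1:153479746-153480952 reached 11, 3 and 5. Fam129a was the other, at 5, 4 and 4.

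The GATA6 regions of this kind lay at other genes. The highest-ranked, chr1:160802947-160804449, 10487 bp from a TSS of Rabgap1l, reached 3, 4 and 4. The tallest, chr1:156263241-156263752, lay 31 bp from a TSS of Tdrd5, a germ cell gene, and reached 7, 9 and 7. Those near Rgs8, BC034090 and Fam163a reached at most 5. Most of these regions are near the median height of the lists, so a call missed in the other factor at this depth cannot be told apart from its absence.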

How the data were processed

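CUT&RUN for GATA4 and GATA6 in XEN cells was analysed from 6 lists of called regions, 3 per factor, and 2 combined lists. Per the study's methods, the authors aligned reads to mm10 (bowtie2 2.3.4.1), filtered out duplicated, poorly mapped and mitochondrial reads and blacklisted positions, and called regions per library with SEACR 1.3 (numeric threshold 0.01, no normalisation, stringent mode). The deposited lists give each region's total and maximum signal (coverage by fragments), unscaled for depth, so signal was compared only within a list. The combined lists hold positions only, and a recomputed merge gave the same 572 and 373 regions of chromosome 1. The labels state 30000000 reads per sample and 500000 cells, and the reads left per library are not given in the sources used here. The methods text names 3F6 beside 3F2 and fewer replicates, and the labels were followed. P-values then measure only the spread between libraries that may be technical.

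Regions were placed by midpoint and density was taken per assembled base. GENCODE M21 gave TSSs and genes. Promoter meant within 1 kb of a TSS. Shares were compared within libraries by a two-sided exact sign-flip test over 6 libraries, adjusted over 5 measures. Named genes are those of role lists, and the genes nearest to the segment's 5 top regions by percentile of total signal. These were taken from each combined list and each factor-exclusive set. Gene-body genes (Prrc2c, Rc3h1, Adcy10, Ralgps2, 1700025G04Rik, Pappa2, Dnm3) and the bin and gene-body comparisons were chosen after values were seen. Members and lists were chosen with earlier results of these data known. Of the 71 listed genes, 66 had a TSS in the segment. Some listed genes are not reported here. Code was tested on simulated data. Versions were Python 3.11.15, matplotlib 3.10.9, scipy 1.17.1, pandas 2.3.3 and numpy 2.4.6.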

Additional observations from a re-analysis of the deposited data

How the results depend on the processing

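Of 128 recomputed values, 107 kept their direction and side of the threshold or, for values with no test, stayed within the spread between libraries and, for counts, within 1.5 times. For the difference between factors, and for the tested measures with 1 library left out, no p below 0.05 was possible. Their side of the threshold was thus fixed in advance, and nothing is read from their keeping it. Keeping the direction did not mean keeping the size. The promoter difference of -4.88 points was -10.1 with the other autosomes as reference and -9.22 with stricter lists, and the intergenic difference of -6.52 points was -1.86 and -0.662 (exact sign-flip test, adjusted p = 0.0781 and 0.531). With stricter lists (21223 regions each) the density ratio was 4.76 for GATA4 and 5.35 for GATA6, the upper edge moved to 172.5 Mb and the difference in G and C content turned to -0.746 points. With the other autosomes as reference the GATA6 ratio was 4.22 and the G and C difference -1.06 points. The lower edge was 147.5 Mb in GATA4 replicate 3 alone and 148 Mb in GATA6 replicate 2 alone. The promoter difference was -5.58 points with a 0.5 kb window and -3.42 with a 2.5 kb window, both with an adjusted sign-flip p of 0.0391 in place of 0.0521, and over all its alternatives it stayed negative. Its unadjusted p was already the smallest that 6 libraries can give, so the adjusted value fell only through the p of another measure. Nothing is read from its passing 0.05. The G and C difference was 0.241 points in 250 bp windows (exact sign-flip test, adjusted p = 0.0391). Requiring 2 of 3 libraries gave 457 GATA4 and 380 GATA6 regions in the segment, and requiring both of the remaining libraries when 1 was left out gave 255 to 271 and 203 to 217. Within 50 kb of a TSS, 105 and 99 genes had a combined region. Apart from the adjusted p of the promoter difference, the cause of these shifts was not tested. With 5 libraries no sign-flip p can go below 0.0625. Same-numbered libraries of the factors did not deviate together over bins (correlations of -0.0016, -0.071 and -0.193). These few values cannot show whether same-numbered libraries were prepared together. With the replicate block the log2 difference between factors was -0.14 (exact sign-flip p = 0.5, smallest possible 0.25). Unknown depth limits what single calls show, since the median region holds 4 stacked fragments.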
